A study of Mus musculus with 2 samples.

Results

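The genes described here are 36 enzymes of nucleotide synthesis and folate metabolism, measured among 43346 gene rows in G1E-ER4 cells. They were chosen by symbol, from knowledge of the pathways. Through the mouse annotation, 35 of them were matched by gene ID and 1, Pnp, by its transcript IDs. G1E-ER4 is an immortalized mouse erythroid line that lacks a functional Gata1 gene of its own and carries the transcription factor GATA1 joined to a ligand-binding domain from the estrogen receptor, so that hormone switches it on. Cultures had been exposed to 10 nM 17beta-estradiol for 30 h, and their poly(A) RNA was sequenced with paired ends. Both libraries belong to this 1 group, labelled biological replicates 1 and 2, so the values describe 1 state of a single line and no effect of estradiol can be given. The labels do not say how the cultures were separated. The p-values below rest only on the spread between these 2 libraries, with each gene's variance drawn toward that of genes at similar levels.

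Cells make purine nucleotides by building the base on an activated ribose, phosphoribosyl pyrophosphate (PRPP), and pyrimidine nucleotides by making the base first. Salvage enzymes instead reuse bases and nucleosides, which matters in red cell precursors because the mature cell keeps salvage but not the complete de novo routes. Ribonucleotide reductase and thymidylate synthase supply the deoxynucleotides for DNA, and folate carries the carbon units that purine and thymidylate synthesis consume.

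Levels are given as TPM, the deposited unit of transcript abundance that takes account of transcript length and of library size. In bulk RNA, fewer cells with a transcript and less of it in each cell cannot be told apart. Replicate 1 held 73681318 expected counts and replicate 2 held 56056404. Each gene was set against the median expressed gene, the middle of 7578 protein-coding genes that reached 1 TPM in each library, at 15.4 TPM. The erythroid identity of the cells was visible in 11 of 12 erythroid markers above that median, against 35% of all genes tested. By gene TPM they were led by Hbb-bs and Hba-a1. Coding transcripts held only 277 TPM of Hbb-bs in replicate 1 and 305 in replicate 2, and 6840 and 1207 TPM of Hba-a1. By that measure Zfpm1, at 2509 and 3242 TPM, exceeded Hbb-bs. The mast cell and lymphoid lists did not exceed 0.73 TPM for any gene, and Cpa3, Mcpt8, Cd4 and Cd8a were listed at 0 in both libraries. Gata1 had 2036 TPM in replicate 1 and 1608 in replicate 2, values that do not separate the introduced sequence from the endogenous locus.

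Most of the summed TPM of the set came from a few abundant genes standing over a low majority. Rrm2, the small subunit of ribonucleotide reductase, had 221 TPM in replicate 1 and 126 in replicate 2. Nt5c3, a nucleotidase that dephosphorylates pyrimidine monophosphates and is known from an inherited human hemolytic anemia, had 202 and 153 TPM in the same order. Shmt2, the mitochondrial serine hydroxymethyltransferase that loads folate with carbon from serine, had 125 and 87.7 TPM. These 3 genes made up 64.4% of the summed TPM of all 36 in replicate 1 and 60% in replicate 2. At least 1 TPM in both libraries was reached by 25 of the 36, at least 10 TPM by 10 and at least 100 TPM by 2, against 35.2%, 20.3% and 4.31% of all 21547 protein-coding genes. Another 8 genes stayed under 1 TPM in both libraries.

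Against the median expressed gene, 6 of 34 tested genes lay above, 24 lay below and 4 did not pass (limma on log2(TPM + 1), Benjamini-Hochberg adjusted p under 0.05 over all 9562 genes tested). Of all genes tested, 35% lay above and 55.7% below, so the share of these enzymes below the median was larger, a description without a test. The 6 genes above were Rrm2, Nt5c3, Shmt2, Cad, Tk1 and Dut. Rrm2, Nt5c3 and Shmt2 kept their place under every alternative that gave a test, whereas Cad, Tk1 and Dut did not, as described with each. The 2 genes not tested had under 20 counts in all, with 6 and 5 counts for Ctps2 and 8 and 0 counts for Dctd in replicates 1 and 2. In replicate 2 the count of 0 for Dctd allows up to 3 counts.

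**Figure D1:**
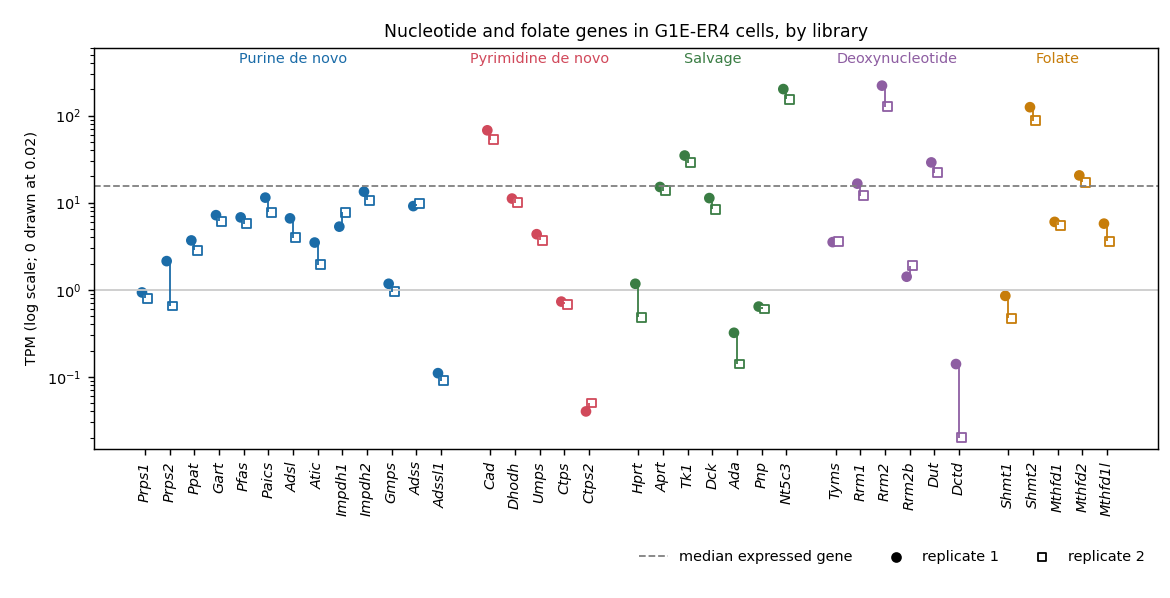
TPM of the 36 genes on a log axis, by pathway step, with filled circles for replicate 1, open squares for replicate 2 and a dashed line at the median expressed gene (15.4 TPM). All 13 purine genes sit under the line, while Rrm2, Nt5c3 and Shmt2 stand highest at 87.7 to 221 TPM.

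The stretches upstream of the RefSeq start sites are shown for Rrm2, Nt5c3 and Shmt2, which hold most of the RNA of the set, and for Rrm1 and Tyms, the low partners of deoxynucleotide synthesis. They come from RefSeq promoter windows on build GRCm38.p6, read 5′ to 3′ on the strand of the gene, and end just before the start site, or before the first annotated exon for Rrm2. The stretch of Nt5c3 lies inside the annotated gene, which runs from 56882400 to 56923932 on the minus strand. Its RefSeq start is therefore internal to that gene and not at its annotated 5′ end. Capitals mark 3 of the 4 motifs searched: CCAAT boxes (CCAAT), GC boxes (GGGCGG) and E-boxes (CACGTG), each on either strand. The fourth, the E2F-type motif (TTTGGCGC, TTTCCCGC or TTTCGCGC), is in none of them.
Rrm2 (chr12:24708154-24708240, plus strand): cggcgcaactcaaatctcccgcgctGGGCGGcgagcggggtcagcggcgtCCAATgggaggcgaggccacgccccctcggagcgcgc
Rrm1 (chr7:102441595-102441694, plus strand): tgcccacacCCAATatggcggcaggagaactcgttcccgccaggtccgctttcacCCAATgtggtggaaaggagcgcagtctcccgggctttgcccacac
Tyms (chr5:30073626-30073725, minus strand): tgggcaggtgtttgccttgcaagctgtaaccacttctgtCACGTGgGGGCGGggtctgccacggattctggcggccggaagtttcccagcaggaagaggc
Nt5c3 (chr6:56901887-56901986, minus strand): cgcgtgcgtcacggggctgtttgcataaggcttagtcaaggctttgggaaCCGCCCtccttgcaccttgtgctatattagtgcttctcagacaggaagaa
Shmt2 (chr10:127522445-127522544, minus strand): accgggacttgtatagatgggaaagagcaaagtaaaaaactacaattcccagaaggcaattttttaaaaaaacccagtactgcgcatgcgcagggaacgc

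The 2 reductase subunits both carry CCAAT, at base -50 of Rrm2 and at bases -91 and -45 of Rrm1, although their levels differ. Tyms has the E-box at base -61, and a GC box at base -54, with a single base between them, and none of the 4 motifs is in the Shmt2 window. Promoter windows, from 250 bases before to 50 after the start, were found for 33 of the genes (39 windows, since some genes have several starts). Dhodh, Pfas and Rrm2b were not among them. A GC box was in 76.9% of the 39 windows, against 46.2% of 21263 windows of all protein-coding genes. The windows of these genes had a median GC content of 61%, against 56.3% for all, and the part of this in the motif share was not tested. The E-box was in 10.3% of the windows (Atic, Paics, Impdh2 and Tyms), against 7.84% of all, and the E2F-type motif in 5.13% (Ppat and Prps2), against 2.41%. CCAAT was in 38.5%, against 38.2% of all windows. A match of letters is a description and does not show that a factor binds there.

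De novo purine synthesis was low throughout, with a median of 5.27 TPM over its 13 genes. None lay above the median expressed gene, 12 lay below, and Impdh2 did not pass (-0.34). Impdh2 did lie below by the test after GC adjustment (-0.35) and by the length of its longest coding transcript (-0.78). With coding transcripts only it did not pass (-0.11). After adjustment for GC content, Paics (-0.13) and Adss (0.24) no longer lay below it by the test. Its steps begin with the PRPP synthetases. Prps1 had 0.93 TPM in replicate 1 and 0.80 in replicate 2, and Prps2 had 2.13 and 0.65 TPM. The committed step is made by Ppat, the amidotransferase, with 3.68 and 2.83 TPM. The next enzymes were Gart, a single protein with several activities that uses formyl-folate, at 7.18 and 6.14 TPM, and Pfas at 6.77 and 5.75 TPM.

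Paics, which adds carbon dioxide and aspartate to the ring, had 11.4 TPM in replicate 1 and 7.71 in replicate 2. Adsl, which splits off fumarate, had 6.60 and 3.94 TPM. Atic, which closes the ring with a further formyl group to give inosine monophosphate, had 3.48 and 1.93 TPM. Paics and Ppat lie head to head on chromosome 5 (Ppat 76913249 to 76951578 on the minus strand, Paics 76951307 to 76967509 on the plus strand). Their annotated exons overlap by 272 bases on opposite strands. Whether the counting used strand is not stated, so reads from the overlap may be shared between them. The difference of Paics over Ppat was 1.30 in log2(TPM + 1) (SE 0.21, n = 2), with a 95% interval from 0.43 to 2.16 after widening for 16 pairs.

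From inosine monophosphate the path divides toward guanine and adenine nucleotides. Impdh2, the dehydrogenase of the guanine branch, had 13.4 TPM in replicate 1 and 10.6 in replicate 2. A coding transcript of 840 bases took 80.2% and 79.3% of the TPM of Impdh2. The isoenzyme Impdh1 had 5.30 and 7.77 TPM and was the one tested purine gene besides Adss that was lower in replicate 1. The difference of Impdh2 over Impdh1 was 0.80 in log2(TPM + 1), with an interval from -0.12 to 1.72 that includes 0, and it was called after GC adjustment, at 1.62. Gmps, the guanine branch's amination step, had 1.17 and 0.95 TPM. On the adenine branch, Adss had 9.13 and 9.70 TPM, and Adssl1, its muscle isoenzyme, had 0.11 and 0.090 TPM. Impdh2 and Adss, the entries of the branches, differed by 0.31 in log2(TPM + 1), with an interval from -0.53 to 1.15. That difference was -0.59 after GC adjustment and 2.44 with protein-coding transcripts only, where it was called.

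In the pyrimidine route Cad stood alone. Cad, the protein that joins the opening activities of pyrimidine synthesis in a single chain, had 67.7 TPM in replicate 1 and 53.0 in replicate 2. It lay 1.90 above the median expressed gene in log2(TPM + 1) (SE 0.13, limma adjusted p = 7.0e-07). However, 82.0% of its TPM in replicate 1 and 84.4% in replicate 2 were assigned to a transcript of 582 bases, which the later annotation does not list and to which no type could be given. Its full coding transcript of 7137 bases held 4256 and 2944 of 6189 and 4033 counts. When the counts were divided by that full length, Cad had 16.5 and 14.2 on the TPM scale and lay 0.15 above the median, which did not pass. With protein-coding transcripts only, a value that leaves out that transcript because it has no type, Cad had 8.18 and 7.39 TPM, 0.53 below the median. The high rank of Cad therefore rests on the short transcript.

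The following steps were lower. Dhodh, the mitochondrial dihydroorotate dehydrogenase, had 11.1 TPM in replicate 1 and 9.94 in replicate 2, of which only 0.48 and 0.050 TPM came from transcripts annotated as protein-coding. Its leading transcript, a retained intron of 490 bases, took 54.2% and 56.6%. A transcript of 2318 bases that the later annotation does not list took 12.7% and 9.20%. That unlisted transcript held 227 of 564 counts in replicate 1 and 112 of 336 in replicate 2. The coding value of Dhodh leaves it out because it has no type. Umps, which makes uridine monophosphate, had 4.34 and 3.71 TPM. The CTP synthetases were scarce, with 0.73 and 0.68 TPM for Ctps and 0.040 and 0.050 TPM for Ctps2. Cad exceeded Umps by 3.60 in log2(TPM + 1) (interval 2.82 to 4.38). The difference was 1.32 when both were divided by the length of their longest coding transcript, still past the interval.

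Genes of salvage and nucleoside turnover, a group that includes a nucleotidase, ranged from Ada, at 0.32 TPM in replicate 1 and 0.14 in replicate 2, to Nt5c3. The base salvage enzymes differed. Aprt, for adenine, had 15.1 and 13.7 TPM, and Hprt, for hypoxanthine and guanine, had 1.17 and 0.48 TPM. Aprt exceeded Hprt by 3.10 in log2(TPM + 1) (SE 0.18, interval 2.36 to 3.85). The transcripts of these genes differ in GC content, 58.6% for Aprt and 40.1% for Hprt, and after adjustment for GC content the difference was 1.12, still past its interval. Aprt did not pass against the median expressed gene (-0.08) but lay below it after that adjustment. By the length of the longest coding transcript Aprt lay 0.52 above it, so its side turned with the measure. All its TPM came from a coding transcript of 866 bases, so that setting changed the scaling and the reference, not its own length. Across all expressed genes, levels moved with GC content, with median levels of 7.43 TPM under 45% GC, 13.7 TPM from 45 to 55% and 30.9 TPM at 55% or more.

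Among nucleoside kinases, Tk1, the thymidine kinase of dividing cells, had 34.8 TPM in replicate 1 and 28.8 in replicate 2, and Dck, the deoxycytidine kinase, had 11.3 and 8.38 TPM. The difference was 1.60 in log2(TPM + 1) (interval 0.78 to 2.43). It was 0.02 after GC adjustment and -0.17 with protein-coding transcripts only, and passed in neither. A retained-intron transcript of 724 bases took 62.5% of the TPM of Tk1 in replicate 1 and 64.6% in replicate 2. Coding transcripts of Tk1 held 10.3 and 7.06 TPM, 0.41 below the median expressed gene, whereas the gene value lay 1.00 above it. Dck lay 0.60 below the median, but 0.38 above it after GC adjustment. Pnp, the purine nucleoside phosphorylase, had 0.64 and 0.60 TPM. The difference of Pnp over Ada was 0.40 in log2(TPM + 1), with an interval from -0.01 to 0.81, and it was called by coding transcripts (0.40) and after GC adjustment (1.03). About 18.0% of the annotated exon bases of Pnp are shared with another gene on the same strand, so its reads may be split.

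Nt5c3 (ENSMUSG00000029780.10, chromosome 6, 56882400 to 56923932, minus strand in mm10) lay 3.44 above the median expressed gene in log2(TPM + 1) (SE 0.14, limma adjusted p = 1.3e-08). Among the 8 genes of the set with at least 10 mean TPM and several transcripts, its leading transcript alone differed between the libraries. A processed transcript of 418 bases took 46.0% of its TPM in replicate 1 and 5.59% in replicate 2. Another, of 387 bases, took 7.27% and 35.4%. The coding transcript of 1676 bases was nearly equal in both, with 77.8 TPM in replicate 1 and 77.9 in replicate 2. By coding transcripts alone Nt5c3 still lay 2.64 above the median. Its paralog Nt5c3b had 13.3 and 10.3 TPM.

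Deoxynucleotide synthesis was led by Rrm2 (ENSMUSG00000020649.7, chromosome 12, 24708241 to 24714146, plus strand in mm10). It lay 3.36 above the median expressed gene in log2(TPM + 1) (SE 0.18, limma adjusted p = 9.8e-08), from 33434 counts in replicate 1 and 14536 counts in replicate 2. A single coding transcript of 2193 bases took 99.6% and 99.8% of it. Rrm1, the large subunit that forms the active enzyme with Rrm2, had 16.5 and 12.0 TPM and did not differ from the median by the test (-0.11, adjusted p = 0.49), although it lay 0.59 above after GC adjustment, which passed. Rrm2b, the alternative small subunit that p53 induces, had 1.41 and 1.89 TPM, and coding transcripts held 0.50 and 0.48 TPM of that.

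Within the enzyme, Rrm2 thus exceeded Rrm1 by 3.48 in log2(TPM + 1) (SE 0.23, interval 2.52 to 4.44), a TPM ratio of 13.4 in replicate 1 and 10.5 in replicate 2. Rrm2 exceeded Rrm2b by 5.99 (SE 0.21, interval 5.11 to 6.87). Both differences passed under every alternative that gave an interval. The GC content of these genes was close, between 44.2% and 47.3%.

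Among the thymidylate genes of this step, Tyms and Dctd were low. Dut, the dUTPase that removes dUTP and supplies dUMP, had 29.0 TPM in replicate 1 and 22.0 in replicate 2. Its longer transcript, of 1950 bases, took 79.7% and 77.3% and the shorter, of 1020 bases, 20.3% and 22.7%. Dut lay 0.69 above the median expressed gene but 0.60 below it when the median was taken over genes of at least 10 TPM. Tyms, the thymidylate synthase, had 3.52 and 3.57 TPM. A retained-intron transcript of 816 bases took 78.2% and 91.0% of Tyms, and its coding transcripts held 0.29 and 0.11 TPM. Tyms over Dut was -2.53 in log2(TPM + 1) (SE 0.19, interval -3.32 to -1.74). Dctd, the dCMP deaminase, had 0.14 TPM in replicate 1 and was listed at 0 in replicate 2.

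**Figure D2:**
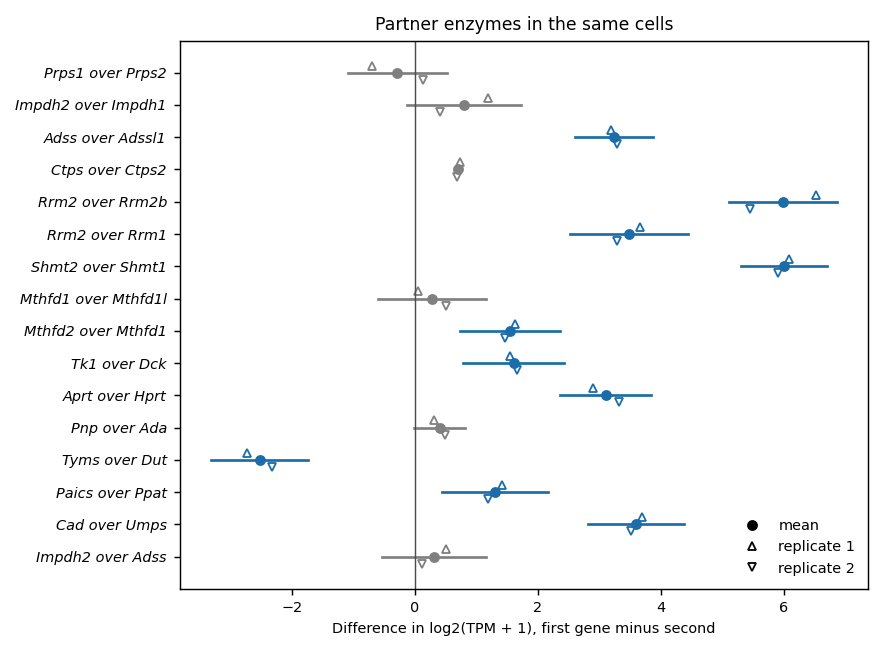
Differences in log2(TPM + 1) between 16 pairs of genes, first gene minus second, with the mean (circle), replicate 1 (upward triangle), replicate 2 (downward triangle) and the 95% interval widened for 16 pairs (line); blue marks the 10 pairs whose interval leaves out 0. Rrm2 over Rrm2b and Shmt2 over Shmt1 lie farthest right, at 5.99 and 6.0, and Ctps over Ctps2 has no interval.

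In folate metabolism the mitochondrial enzymes Shmt2 and Mthfd2 were above their cytosolic partners Shmt1 and Mthfd1. Shmt2 (ENSMUSG00000025403.4, chromosome 10, 127517123 to 127522444, minus strand in mm10) lay 2.70 above the median expressed gene in log2(TPM + 1) (SE 0.14, limma adjusted p = 1.0e-07), with 1 annotated transcript. Shmt1, the cytosolic isoenzyme, had 0.85 TPM in replicate 1 and 0.47 in replicate 2. Shmt2 exceeded Shmt1 by 6.0 (SE 0.17, interval 5.31 to 6.70), a TPM ratio of 147 in replicate 1 and 187 in replicate 2.

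Mthfd2, the mitochondrial methylene-folate dehydrogenase, had 20.6 TPM in replicate 1 and 17.0 in replicate 2 and did not pass against the median (0.27, adjusted p = 0.087). It passed above after GC adjustment (0.62), by the length of the longest coding transcript (0.88) and with coding transcripts only (0.63). Coding transcripts held 20.5 and 17.0 TPM, nearly all of its level, so the last shift came from the reference median. Mthfd2 exceeded Mthfd1, the cytosolic enzyme of the same interconversions, by 1.55 in log2(TPM + 1) (SE 0.20, interval 0.74 to 2.36). Mthfd1 had 6.01 and 5.51 TPM. Mthfd1l, which releases formate from mitochondrial folate, had 5.74 and 3.59 TPM. The difference of Mthfd1 over Mthfd1l was 0.28, with an interval from -0.60 to 1.16.

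Set side by side, the steps had median levels of 5.27 TPM for de novo purine, 4.03 for de novo pyrimidine, 9.83 for salvage and nucleoside turnover, 8.89 for deoxynucleotide and 5.76 for folate genes. In log2(TPM + 1) relative to the median expressed gene, the same medians were -1.41, -1.70, -0.60, -0.98 and -1.27. Each step except de novo purine synthesis held 1 or 2 genes above the median expressed gene: Cad, Tk1 and Nt5c3, Rrm2 and Dut, and Shmt2. Members are few and are not replicates, so these medians carry no test. Of the 16 pairs, 15 had an interval and 10 were called, with the first gene higher in 9. For Prps1 over Prps2 the difference was -0.29 (interval -1.09 to 0.51), and 97.1% of the TPM of Prps2 in replicate 1 and 86.2% in replicate 2 came from a processed transcript of 599 bases. By the length of the longest coding transcript it was 0.73, and Prps1 was then called higher.

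Transcript assignment touched further genes. A retained-intron transcript of 1733 bases took 85.8% of Adss in replicate 1 and 89.5% in replicate 2, and its coding transcripts held 1.30 and 1.02 TPM. The difference of Adss over Adssl1, 3.24 in log2(TPM + 1) on gene values, was 0.97 with coding transcripts only, still past its interval. For Ppat a retained-intron transcript of 2057 bases took 62.7% and 60.4%, and for Rrm2b a transcript marked for nonsense-mediated decay took 64.8% and 75.0%. Gart, whose short form of 1865 bases encodes only part of the protein, had 6.21% of its TPM in that form in replicate 1 and 10.7% in replicate 2. Impdh1 was led in both libraries by the same coding transcript of 1237 bases, at 75.8% and 80.8%. Of 8 genes with at least 10 mean TPM and several transcripts, 7 had the same leader in both libraries, against 90.4% of 3541 such protein-coding genes.

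**Figure D3:**
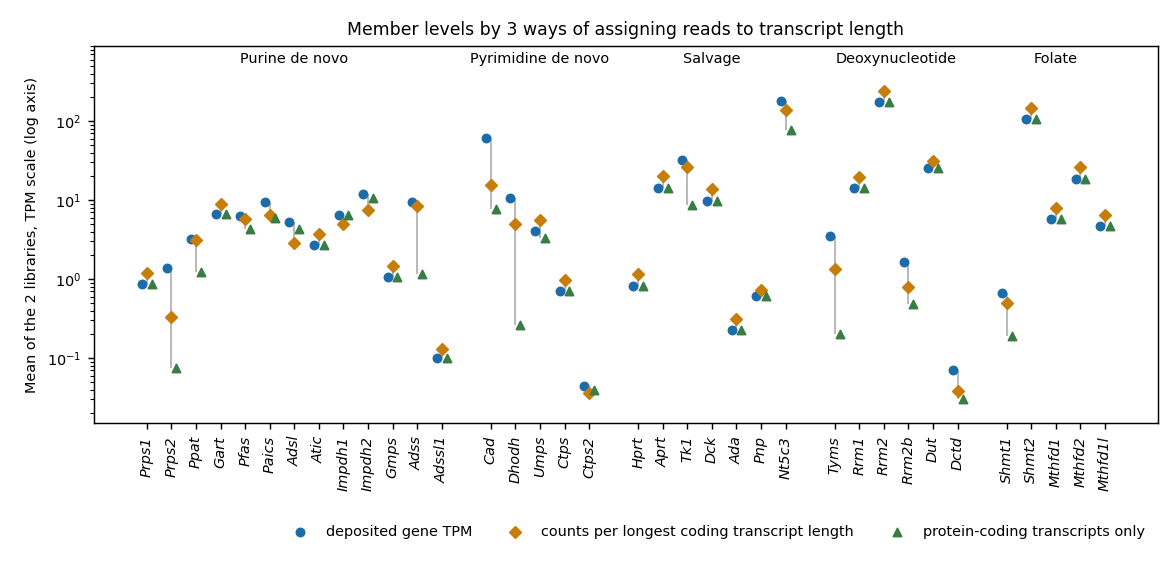
Mean of the 2 libraries for each gene by the deposited gene TPM (blue circles), by counts per length of the longest coding transcript (orange diamonds) and by protein-coding transcripts only (green triangles), on the TPM scale with a log axis. Rrm2, Shmt2 and Mthfd2 differ little between the 3 measures, while Cad is at 60.4, 15.4 and 7.79 and Dhodh, Adss, Tk1 and Tyms also separate.

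The libraries differed in the same direction for most of these genes. After TMM scaling, 31 of 34 were higher in replicate 1, against 52.2% of all 9562 genes tested, and the median log2 ratio of replicate 1 over replicate 2 was 0.26, against 0.02 for all. Past 1.5-fold, 8 of 34 were higher in replicate 1 (background 9.67%) and 0 of 34 lower (background 4.12%). With 1 library on each side there is no test, and the intervals cover counting error only. The 8 genes were Prps2, Adsl, Atic, Hprt, Ada, Rrm2, Shmt1 and Mthfd1l.

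The counts behind them differ. Rrm2 was 0.75 higher on the log2 scale (interval 0.72 to 0.78). Hprt was 1.21 higher (0.63 to 1.85) from 99 counts in replicate 1 and 31 in replicate 2, and Ada was 1.09 higher (0.16 to 2.21) from 36 and 12 counts. Atic, at 0.79 (0.59 to 0.99), and Adsl, at 0.63 (0.43 to 0.83), lay close to each other. Impdh1 was 0.55 lower (-0.72 to -0.38). At a 2-fold limit the count was 2, and on log2(TPM + 1) adjusted for GC content it was also 2, Rrm2 and Prps2. GC content and the library ratio moved in opposite directions over all genes tested (Spearman correlation -0.24, n = 9562 genes, which share both libraries). Over the 34 enzymes the correlation was -0.095.

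Marker lists were set against the same contrast. The 12 S phase genes had a median of 24.6 TPM in replicate 1 and 17.1 in replicate 2, and the median of their log2 ratios was 0.38. Of them, 1 of 12 was past 1.5-fold higher in replicate 1 and 0 lower. Their 2 highest genes went opposite ways, with 153 and 117 TPM for Mcm2 and 134 and 166 TPM for Ccne1. Coding transcripts held all of the TPM of Mcm2 but only 29.3 and 32.3 TPM of Ccne1. The 10 mitosis genes had medians of 26.1 and 9.29 TPM, with different genes at the middle of each library, and the median of their log2 ratios was 0.33. Of them, 4 were past 1.5-fold higher in replicate 1 and 0 lower. Their 2 highest genes were nearly level, with 469 and 502 TPM for Ccna2 and 148 and 126 TPM for Aurkb. Coding transcripts held only 40.4 and 36.7 TPM of Ccna2 and 21.2 and 19.8 TPM of Aurkb. By coding transcripts Plk1 was the highest mitosis gene, with 92.9 TPM in replicate 1 and 69.5 in replicate 2. The 10 myeloid markers summed to 0.32 TPM in replicate 1 and 11.5 in replicate 2, with S100a8 and Ly6g at 0 in both. All 4 myeloid genes that had enough counts, Mpo, Elane, Prtn3 and Ctsg, were over 1.5-fold lower in replicate 1. The 8 megakaryocyte markers had medians of 0.24 and 0.61 TPM. The most abundant of them, Gp1ba, had 17.3 TPM in replicate 1 and 11.0 in replicate 2, a log2 ratio of 0.64. Of the 6 megakaryocyte genes with enough counts, 1 was over 1.5-fold higher in replicate 1 and 3 were lower. The 7 progenitor markers had medians of 0.16 and 0.14 TPM. The most abundant progenitor marker, Gata2, had 23.1 TPM in replicate 1 and 34.7 in replicate 2, a log2 ratio of -0.65. The part of proliferation, of GC content and of other cells in the library difference was not tested.

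**Figure D4:**
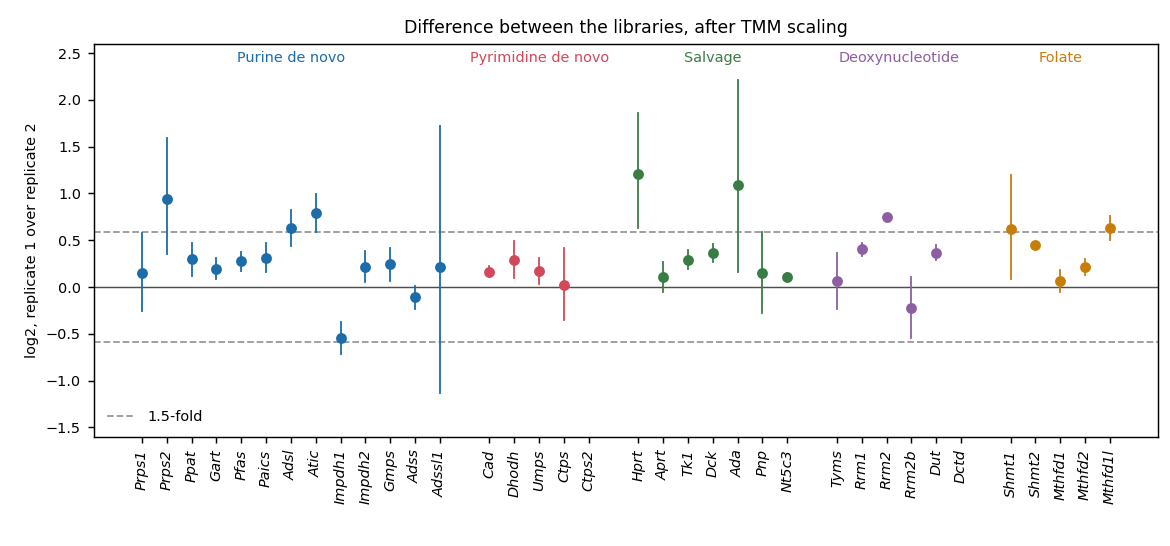
Log2 ratio of replicate 1 over replicate 2 for 34 genes after TMM scaling, coloured by pathway step, with exact 95% intervals for counting error and dashed lines at 1.5-fold. Points lie above 0 for 31 genes, and Impdh1, Adss and Rrm2b lie below it.

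Neighbouring enzymes outside the set give the context. Of 17 nucleotide kinases 14 could be tested, and 7 lay above the median expressed gene, 5 below and 2 did not pass. Across all 9562 genes tested, 35% lay above and 55.7% below. Among the highest were Nme4, a mitochondrial nucleoside diphosphate kinase, at 127 TPM in replicate 1 and 157 in replicate 2, and Dtymk, the thymidylate kinase, at 61.1 and 80.1 TPM. Nme7 was the lowest with at least 1 TPM in both, at 1.52 and 1.25 TPM. Of the PRPP synthetase-associated proteins, Prpsap1 had 34.5 and 48.1 TPM and Prpsap2 had 3.05 and 3.15 TPM.

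Of 33 other salvage and breakdown genes 20 could be tested, with 8 above, 11 below and 1 that did not pass. These shares are near those of all genes tested, 35% above and 55.7% below. Gmpr, the GMP reductase that turns guanine into inosine nucleotides, had 1772 TPM in replicate 1 and 1803 in replicate 2, more than any of the 36 in either library. The uridine-cytidine kinase Uckl1 had 97.2 and 110 TPM, and the AMP deaminase Ampd2 had 112 and 92.7 TPM. With protein-coding transcripts only, Uckl1 had 7.93 TPM in replicate 1 and 7.23 in replicate 2, 0.56 below the median expressed gene. By that measure Gmpr and Ampd2 stayed above it, at 7.14 and 1.93 in log2(TPM + 1), while some others of the 8 did not. Samhd1, which degrades deoxynucleotides, was the lowest with at least 1 TPM in both, at 2.23 and 1.49 TPM.

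Of 24 other folate genes 15 could be tested, with 1 above, 13 below and 1 that did not pass. The background over all genes tested was 35% above and 55.7% below. Fpgs, which adds glutamates to folate, had 14.2 TPM in replicate 1 and 12.3 in replicate 2, and Mtfmt, the formyltransferase of mitochondrial initiator tRNA, had 5.05 and 6.92 TPM. The mitochondrial folate carrier Slc25a32 was the lowest with at least 1 TPM in both, at 1.01 and 1.05 TPM.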

How the data were processed

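Both libraries came with gene and transcript tables on mm10 and GENCODE M4, per the deposited description files. The sources used here do not name the aligner, the quantifier or the strand setting. Expected counts, as deposited, are model estimates of fragments and can be fractional, per the file headers. The deposited TPM and FPKM values are scaled by transcript length and library, per the file headers. The deposited percent values give each transcript's part of its gene's TPM. Posterior mean TPM were used as an alternative.

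Names, types, GC content and positions came from GENCODE M21, and 26248 rows named by a number only and 97 other rows were left out. Genes with identical or similar copies share reads through the estimation, which was not examined. Levels, as log2(TPM + 1), were tested in limma 3.58.1 after centring on the library median of expressed genes, over protein-coding genes with at least 20 summed counts, so folds of low genes are understated. Pair intervals used the moderated variances of that fit, combined as if the genes were independent, widened by Bonferroni. Counts were rounded and scaled by TMM in edgeR 4.0.16 for the library ratio, and the exact intervals are at 95%. DESeq2 1.42.0 gave alternative size factors. Totals were 73681318 counts in replicate 1 and 56056404 in replicate 2. Where a gene had 0 counts, up to 3 remain possible, and such floors and intervals hold counting error alone.

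The members, lists, pairs and tests were chosen with earlier results of these data known. All members are named, and of other pathway lists the 3 highest and the lowest with at least 1 TPM in both libraries. Of the 2 highest genes that the rule names per marker list, those of the lists that a result turns on are given. Some genes that this rule names are not reported here. Nt5c3b, Plk1 and markers listed at 0 were named after their values were seen. The CCAAT and GC box motifs, the longest coding length, the coding-only TPM and the GC-adjusted library ratio were added after the data were seen. R 4.3.3, Python 3.11.15, numpy 2.4.6, scipy 1.17.1 and pandas 2.3.3 were used, and the steps were tested on simulated data.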

Additional observations from a re-analysis of the deposited data

How the results depend on the processing

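Counts of genes above (4 to 9) and below (23 to 29) the median expressed gene, of pairs called (10 to 12) and of genes detected (22 to 28) stayed within 1.5 times the values above under each alternative. The count past 1.5-fold in replicate 1 was 7 to 9 under other scalings and count minimums, 2 at 2-fold, 4 on log2(TPM + 1) and 2 after GC adjustment. With under 20 counts, low depth limits Ctps2 and Dctd, and 1 group of 2 libraries limits every test. No paired analysis was possible because the series holds only 1 group. For each change below the cause was not tested, beyond what the setting itself alters.

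Single genes changed side against the median as follows, in log2(TPM + 1). After GC adjustment Adss was at 0.24, Dck at 0.38 and Rrm1 at 0.59. By the length of the longest coding transcript Aprt was at 0.52 and Rrm1 at 0.49. With coding transcripts only Cad was at -0.53, Tk1 at -0.41, Aprt at 0.28 and Rrm1 at 0.25. Without globin and mitochondrially encoded genes in the total, Aprt was at 0.036 and Rrm1 at 0.0031. Against the median of genes with at least 10 TPM, Tk1 was at -0.28, Dut at -0.60 and Mthfd2 at -1.01.

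Among pairs, Prps1 over Prps2 was 0.73 by the longest coding length and 0.79 with coding transcripts only. Impdh2 over Impdh1 was called without the count filter, at 0.80, and after GC adjustment, at 1.62. Tk1 over Dck was no longer called after GC adjustment, at 0.022, or with coding transcripts only, at -0.17. Pnp over Ada was called after GC adjustment, at 1.03, and by the longest coding length and coding transcripts, at 0.40 in each. Impdh2 over Adss was -0.59 after GC adjustment, -0.16 by the longest coding length and 2.44 with coding transcripts only, where it was called. Ctps over Ctps2, which has no interval, was 2.47 and 1.14 with pseudocounts of 0.1 and 0.5 TPM, -0.018 on posterior means, 0.90 without globin and mitochondrial genes, 0.53 after GC adjustment and 0.94 by the longest coding length.

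Step medians moved by more than the spread between the libraries as follows. Purine synthesis was at -1.66 by the longest coding length and -1.81 with coding transcripts, and between -1.69 and -1.41 when either library was left out. Pyrimidine synthesis was at -1.91 and -1.81 with pseudocounts of 0.1 and 0.5 TPM, -1.24 after GC adjustment, -1.30 by the longest coding length and -2.89 with coding transcripts. The last value leaves out the transcripts of Cad and Dhodh that the later annotation does not list. Salvage and nucleoside turnover was at -1.01 after GC adjustment and -0.014 by the longest coding length. Deoxynucleotide synthesis was at -1.10 with a pseudocount of 0.1 TPM, -0.52 after GC adjustment and -1.42 with coding transcripts. Folate was at -1.40 and -1.34 with pseudocounts of 0.1 and 0.5 TPM, -1.23 on posterior means, -1.19 without globin and mitochondrial genes, -1.15 after GC adjustment, -0.71 by the longest coding length and -0.91 with coding transcripts.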
